A study of Rattus norvegicus with 11 samples.

Results

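Grem1, which encodes the secreted bone morphogenetic protein (BMP) antagonist Gremlin, was followed together with 8 further genes of the BMP pathway in rat bladders with partial bladder outlet obstruction (PBOO). The 9 genes were taken from a list of names and are the antagonists Grem1, Nog and Chrd, the ligands Bmp2, Bmp4 and Bmp7, the receptors Bmpr1a and Bmpr2, and the target gene Id1. They are 9 of the 18507 genes in the expression table, and each was found under its own symbol. The list was drawn up with earlier results of these data known, including the week 4 difference in Grem1, so the PBOO and normal values of the 9 genes are given as a description without a test. The bladders came from female Sprague-Dawley rats in which a suture had been tied round the bladder neck over a catheter that was then withdrawn, and the normal controls had the abdominal incision alone. There were 3 normal and 3 PBOO samples at week 4, and 3 normal and 2 PBOO samples at week 5. The column names of the week 5 normal samples call them adult, and the study's methods give a single approximate age, under a year, for all rats. Each library was made from bladder tissue, and the sources used here do not say which layers of the wall it held. The study calls the samples of a group biological duplicates, and states that a further week 5 PBOO sample was left out after quality control of its library. The labels do not tie the samples to animals, so that the p-values measure the spread between these samples.

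BMPs are secreted ligands that bind pairs of type I and type II serine/threonine kinase receptors. The receptors phosphorylate Smad1, Smad5 and Smad9, which enter the nucleus with Smad4 and switch on targets such as the Id genes. Secreted antagonists, Gremlin, Noggin and Chordin among them, hold the ligands away from their receptors, and Smad6, Smad7 and Bambi act as brakes on the receiving cell. In many tissues BMP signaling opposes TGF-beta signaling in fibrosis, and Gremlin is known mainly as an inhibitor of BMP2, BMP4 and BMP7.

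Values are FPKM, fragments per kilobase of transcript scaled to the mapped fragments of the library, so that gene length is taken into account, and log2 fold changes are of PBOO over normal on the log2(FPKM + 0.1) scale with the standard error (SE) of a limma fit. A gene was called changed at an unadjusted p below 0.05 and a fold change of at least 2, and adjusted p-values are Benjamini-Hochberg values over all genes tested. Summed FPKM per library ranged from 424961 to 564343. There were 4871 genes listed at 0 in every week 4 sample against 403 in every week 5 sample, so levels are compared within a week. The median log2 fold change of all tested genes was -0.25 at week 4 and 0.12 at week 5, and came to -0.005 and 0.02 after median-ratio scaling of the libraries. With that scaling the split of called genes at week 4 went from 278 higher and 277 lower to 412 higher and 117 lower.

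Markers of the cell types in the bladder wall also differed between groups. The summed FPKM of 8 smooth muscle genes was 25920 to 28090 in the normal and 51540 to 82570 in the PBOO samples at week 4, and 25070 to 29310 against 997.2 to 1868 at week 5. At week 4, 3 of these 8 genes were called higher (Actg2, Cnn1 and Des), beside 2.46% of all genes. Smtn and Mylk overlapped between groups, with PBOO over normal ratios of means of 1.016 and 1.162. Of 8 fibroblast genes the sum was 1088 to 4125 in normal and 3850 to 4540 in PBOO samples at week 4. At week 5 it was 1521 to 1939 against 121.5 to 173.3. All 8 genes of both lists were called lower at week 5, beside 12.6% of all genes. The sum of 8 urothelial genes, of which Krt7 was listed at 0 throughout week 4, was 5186 to 6342 against 3020 to 3808 at week 4 and 6090 to 7420 against 6521 to 7142 at week 5. The week 5 urothelial sum hides members that went apart. Krt5 was called higher (PBOO over normal ratio of means 13.55) and Upk1a, Upk2 and Krt20 lower (0.488, 0.190 and 0.00988). Over all genes, 9.82% were called higher and 12.6% lower at week 5. The sum of 8 leukocyte genes was 10.49 to 25.95 in the normal samples and 97.35 to 399.6 in the PBOO samples at week 5. Normal replicate 1 of week 4 stood apart from the other two normal samples, with a fibroblast sum of 1088 against 4054 and 4125 and a leukocyte sum of 14.34 against 136.3 and 142.1. The PBOO sums of nerve and glia, adipocyte and erythroid genes were 59.4, 38.3 and 84.0% of the normal means at week 4, and 128, 14.6 and 254% at week 5. At week 4 the groups overlapped in the erythroid sum, which was 16.9 FPKM in normal replicate 1. At week 5 they overlapped in each of these sums. The week 5 adipocyte sum was 0.3084, 9.741 and 0.1773 FPKM in the normal and 0.3253 and 0.6706 FPKM in the PBOO samples, so the 14.6% rests on normal replicate 2. In bulk tissue, fewer cells of a type and less RNA per cell cannot be told apart, and the part of these markers in the results on BMP genes was not tested.

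**Figure D1:**
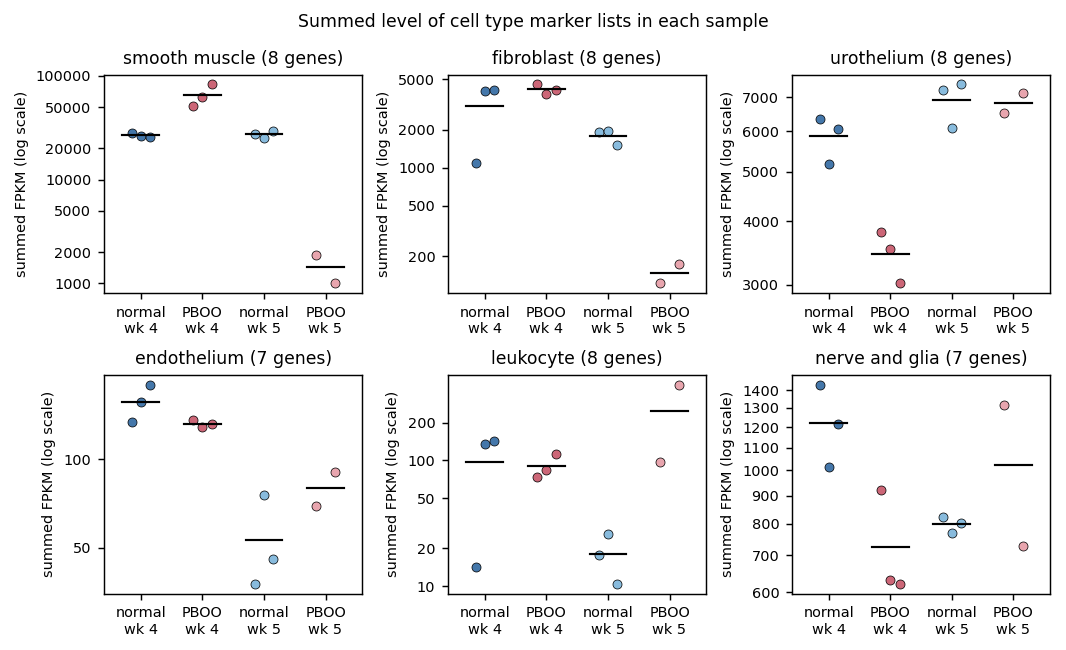
Summed FPKM of the marker genes of 6 cell types (vertical axes, log scale), with 1 point per sample and a line at each group mean for normal and PBOO bladders at weeks 4 and 5. The smooth muscle sums of the 2 PBOO samples at week 5, 1868 and 997.2, lie far below the 25070 to 29310 of the normal samples of that week.

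Grem1 was the member that differed most at week 4. Its level was 2.74, 0.671 and 0.800 FPKM in the normal samples and 28.8, 61.7 and 86.6 FPKM in the PBOO samples. Every PBOO sample lay above every normal sample, and the lowest PBOO value was well over the highest normal one. The mean was 59.0 ± 29.0 FPKM (SD, n = 3) in PBOO against 1.40 ± 1.16 FPKM (SD, n = 3) in normal bladders, a ratio of means of 42.0 and a log2 fold change of 5.42 (SE 0.58). That log2 fold change ranked 1 from the top among the 11320 genes tested at week 4, and it lay between 5.07 and 6.01 when each sample was left out in turn. Among the 9 genes, Grem1 alone passed the threshold for a higher level at week 4, where 2.46% of all genes tested did, and since Grem1 was listed with this difference known the count is a description. In the PBOO samples of week 4, taken from replicate 1 to replicate 3, the smooth muscle sum was 51540, 62470 and 82570 FPKM and the sum of 5 skeletal muscle genes, which was 159 to 242.2 FPKM in the normal samples, was 292.8, 831.1 and 2892 FPKM. The second sum was mostly Acta1, at 256.7, 782.8 and 2741 FPKM, and none of the other 4 genes was called. Both sums had the same order among these samples as Grem1, and their part in its level was not tested. Of the smooth muscle genes, Actg2, Cnn1, Des and Tagln had that order. Myh11, Smtn and Mylk were lowest in replicate 3, and Acta2 in replicate 2.

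At week 5 the level of Grem1 was low in all samples. It was 0.075, 0.826 and 0.197 FPKM in the normal and 1.28 and 0.310 FPKM in the PBOO samples, and the groups overlapped. The log2 fold change was 1.05 (SE 0.92) and was 0.38 with a pseudocount of 1 in place of 0.1, PBOO replicate 1 being the only sample above 1 FPKM. It was 0.52 without normal replicate 1 and 1.93 without PBOO replicate 2. Without normal replicate 2 or without PBOO replicate 1, Grem1 fell under the filter of 0.5 FPKM and was not fitted, so the full range is not known.

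Relative to the ligands it binds, Grem1 went from a small fraction to more than their sum in some of the PBOO samples. The ratio of Grem1 FPKM to the summed FPKM of Bmp2, Bmp4 and Bmp7 was 0.0101 to 0.0471 in the normal samples of week 4, and 0.538, 1.45 and 2.37 in the PBOO samples. At week 5 it was 0.00173 to 0.0213 under normal conditions, and 0.0253 and 0.00986 after PBOO. Of the summed FPKM of 19 secreted antagonists, Grem1 made up 0.198 to 0.847% in the normal samples of week 4 and 5.6, 9.37 and 11.5% in the PBOO samples. By FPKM it ranked between 10 and 14 among these 19 antagonists in the normal samples of week 4, and 4, 3 and 3 in the PBOO samples. At week 5 its part of the antagonist sum was 0.0409 to 0.364% in the normal samples, with ranks of 13 to 15, and 2.46 and 0.852% in the PBOO samples, with ranks of 7 and 9. The groups did not overlap in this share, in which the summed level of all 19 antagonists enters as well as Grem1, while they overlapped in the FPKM of Grem1.

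The promoters of Grem1 and Id1 are shown because Grem1 had the largest week 4 difference of the 9 genes and Id1 is the target gene among them. Both are the RefSeq sequence of the rat GRCr8 assembly, 250 bases before to 50 bases after the start of the gene, read 5′ to 3′ on the strand of the gene, with the searched motifs in capitals. Grem1 lies on the minus strand at chr3:120978270-120978569 and Id1 on the plus strand at chr3:161671314-161671613.
Grem1: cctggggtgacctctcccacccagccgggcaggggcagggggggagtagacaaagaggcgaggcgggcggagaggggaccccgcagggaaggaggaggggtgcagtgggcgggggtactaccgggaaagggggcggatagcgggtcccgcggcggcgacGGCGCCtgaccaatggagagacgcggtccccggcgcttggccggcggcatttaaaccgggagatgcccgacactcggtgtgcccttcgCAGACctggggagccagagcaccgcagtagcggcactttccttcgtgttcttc
Id1: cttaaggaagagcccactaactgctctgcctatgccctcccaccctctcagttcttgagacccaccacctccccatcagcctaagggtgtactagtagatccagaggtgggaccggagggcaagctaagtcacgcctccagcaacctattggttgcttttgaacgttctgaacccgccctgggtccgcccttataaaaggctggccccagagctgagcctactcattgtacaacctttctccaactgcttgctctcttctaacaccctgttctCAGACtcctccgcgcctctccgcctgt
The capitals mark GGCGCC, which is its own reverse complement, and CAGAC, searched on both strands as CAGAC and GTCTG, both being short runs known to be bound by Smad proteins. The Grem1 promoter held GGCGCC starting 91 bases before the gene start and CAGAC starting 3 bases before it, and the Id1 promoter held CAGAC starting 24 bases after the start. Of 33469 rat promoters in the same table, 11.02% held GGCGCC and 50.06% held CAGAC or its complement. GGCGCC was in 3 of the 7 member genes with a promoter in the table (Grem1, Nog and Chrd), CAGAC in 5 of 7, and Bmp2 and Bmp7 had no entry. The match of letters is a description and says nothing about binding in these bladders.

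Nog, which encodes Noggin, did not differ beyond the spread of the samples in either week. It was 0.786, 0.881 and 1.51 FPKM in the normal and 0.758, 1.07 and 0.656 FPKM in the PBOO samples at week 4, and 1.59, 0.390 and 1.23 against 1.11 and 0.780 FPKM at week 5. The groups overlapped in both weeks, with log2 fold changes of -0.29 (SE 0.37) and 0.00 (SE 0.60).

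Chrd, which encodes Chordin, lay on opposite sides of normal in the 2 weeks. At week 4 it was 1.75, 2.39 and 2.27 FPKM in the normal and 2.65, 3.65 and 3.595 FPKM in the PBOO samples. At week 5 it was 1.31, 0.980 and 1.67 FPKM in the normal and 0.263 and 0.0598 FPKM in the PBOO samples. All PBOO samples were above the normal samples at week 4 and below them at week 5. This combination was shown by 4.09% of the 11296 genes fitted over both weeks together. The log2 fold change was 0.60 (SE 0.23) at week 4 and -2.53 (SE 0.51) at week 5, where the normal mean of 1.32 ± 0.345 FPKM (SD, n = 3) was 8.18 times the PBOO mean of 0.162 ± 0.144 FPKM (SD, n = 2). Because the PBOO values are close to the pseudocount, the week 5 log2 fold change was -0.99 with a pseudocount of 1 and -3.24 with 0.01, and it lay between -3.12 and -1.94 without 1 sample.

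**Figure D2:**
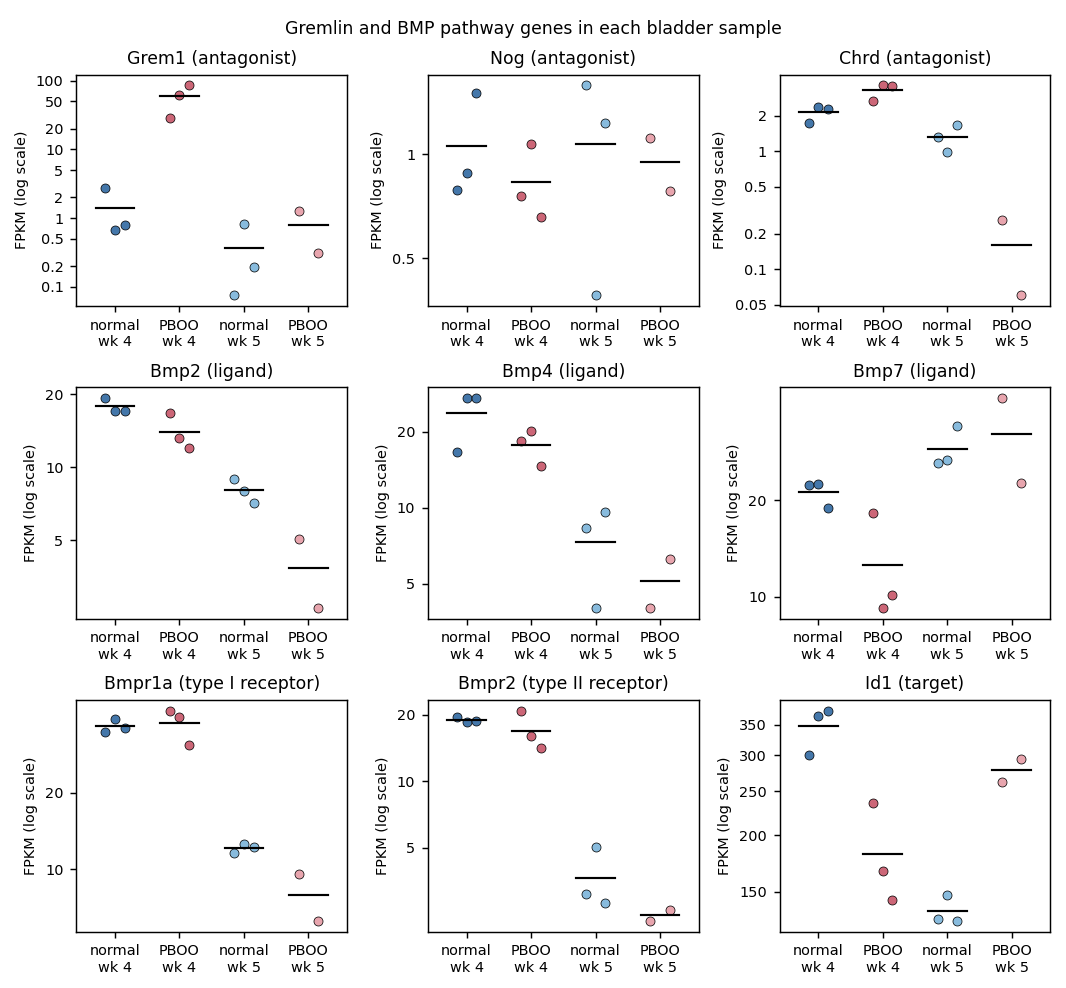
FPKM of the 9 genes (vertical axes, log scale) in every sample, with 1 panel per gene, 1 point per sample and a line at each group mean. Grem1 reaches 28.8 to 86.6 FPKM in the week 4 PBOO samples and stays at or below 2.74 FPKM in all other samples.

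The ligand Bmp2, known for inducing bone, lay below normal in every PBOO sample in both weeks. It was 19.3, 17.0 and 17.1 FPKM in the normal and 16.7, 13.2 and 11.97 FPKM in the PBOO samples at week 4, and 8.91, 7.97 and 7.12 against 5.04 and 2.61 FPKM at week 5. The groups did not overlap in either week, although at week 4 the nearest samples, at 17.0 and 16.7 FPKM, were almost level. The log2 fold change was -0.36 (SE 0.15) at week 4, which was near the median of all genes and came to -0.11 after median-ratio scaling, and -1.11 (SE 0.30) at week 5. The week 5 value was -0.65 without PBOO replicate 2, and -1.57 without PBOO replicate 1.

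Bmp4, a ligand made by mesenchyme next to epithelia, overlapped between groups in both weeks. Its FPKM was 16.7, 27.3 and 27.2 in normal and 18.5, 20.1 and 14.6 in PBOO samples at week 4, and 8.31, 3.99 and 9.58 against 3.99 and 6.26 at week 5. The log2 fold changes were -0.40 (SE 0.23) and -0.44 (SE 0.42).

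Bmp7, a ligand that epithelia produce, was lower in every PBOO sample at week 4 only. It was 22.3, 22.4 and 18.9 FPKM in the normal and 18.3, 9.19 and 10.1 FPKM in the PBOO samples at week 4, with a log2 fold change of -0.82 (SE 0.26) that was -0.57 after median-ratio scaling. At week 5 it was 26.1, 26.7 and 34.1 FPKM in the normal and 41.8 and 22.6 FPKM in the PBOO samples, which lay on either side of the normal samples, with a log2 fold change of 0.09 (SE 0.28). The summed urothelial markers of the week 4 PBOO samples were also lower, at 58.8% of the normal mean. At week 5 the sum was 98.7% of the normal mean, with 1 member called higher and 3 lower, beside 9.82% and 12.6% of all genes. Of the summed FPKM of the 3 ligands, Bmp7 made up 29.9 to 38.3% in normal and 21.6 to 34.2% in PBOO samples at week 4, and 60.2 to 69.1% against 71.8 and 82.2% at week 5.

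The receptors overlapped between groups at week 4 and lay below normal at week 5. Bmpr1a, a type I receptor, was 34.8, 39.1 and 35.8 FPKM in the normal and 42.0, 39.6 and 30.9 FPKM in the PBOO samples, and Bmpr2, the type II receptor that pairs with it, was 19.6, 18.4 and 18.8 FPKM against 20.8, 15.9 and 14.1 FPKM. At week 4 the log2 fold changes were 0.03 (SE 0.14) and -0.18 (SE 0.16), and that of Bmpr2 turned to 0.07 after median-ratio scaling. At week 5 both were lower in each PBOO sample than in any normal sample. Bmpr1a was 11.6, 12.5 and 12.2 FPKM in the normal against 9.56 and 6.24 FPKM in the PBOO samples, a log2 fold change of -0.64 (SE 0.20). Bmpr2 was 3.11, 5.03 and 2.81 FPKM against 2.34 and 2.63 FPKM, a log2 fold change of -0.49 (SE 0.29). Neither reached a 2-fold difference at week 5, and Bmpr1a was at -0.33 without PBOO replicate 2 and at -0.94 without PBOO replicate 1.

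Id1, a transcriptional inhibitor of differentiation that BMP-activated Smads switch on directly, had the highest FPKM of the 9 genes in every sample and lay on opposite sides of normal in the 2 weeks. At week 4 it was 300.4, 366 and 375 FPKM in the normal and 236, 167 and 144.0 FPKM in the PBOO samples. At week 5 it was 131, 148 and 129 FPKM in the normal and 261 and 294 FPKM in the PBOO samples. All PBOO samples were below normal at week 4 and above it at week 5. The same held for 14.4% of the 11296 genes fitted over both weeks together. The mean was 182 ± 47.7 FPKM (SD, n = 3) against 347 ± 40.9 FPKM (SD, n = 3) at week 4, or a log2 fold change of -0.96 (SE 0.20) that was -0.70 after median-ratio scaling. At week 5 it was 278 ± 22.9 FPKM (SD, n = 2) against 136 ± 10.4 FPKM (SD, n = 3), and the log2 fold change was 1.03 (SE 0.13). Leaving out 1 sample at a time gave -1.16 to -0.80 at week 4 and 0.95 to 1.11 at week 5.

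**Figure D3:**
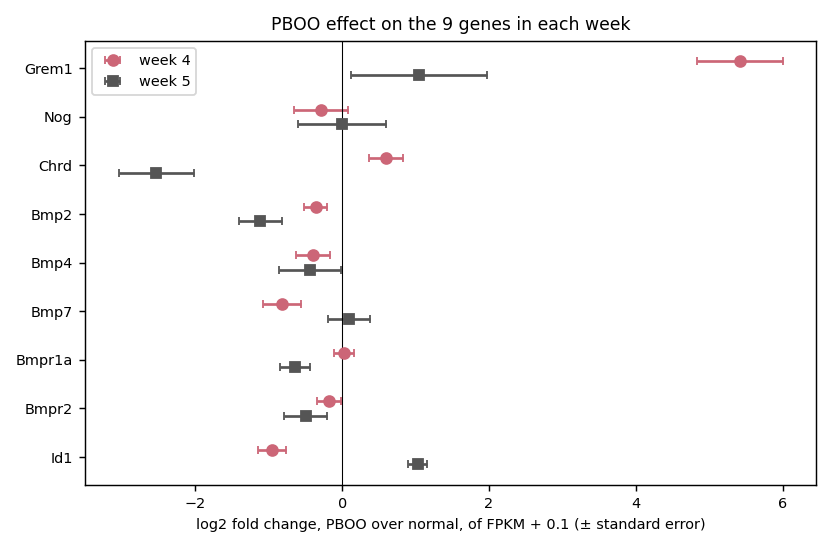
Log2 fold change of PBOO over normal (horizontal axis, on the log2(FPKM + 0.1) scale, with bars of 1 SE) for the 9 genes at weeks 4 and 5. Grem1 at week 4 stands at 5.42, Chrd goes from 0.60 to -2.53 and Id1 from -0.96 to 1.03.

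Across the 9 genes, every PBOO sample lay above every normal sample for 2 (Grem1 and Chrd) and below for 3 (Bmp2, Bmp7 and Id1) at week 4, and 4 overlapped. Over all genes tested, 6.63% were above and 34.9% below in this way. At week 5, Id1 was above, Chrd, Bmp2, Bmpr1a and Bmpr2 were below, and 4 overlapped, beside 35.3% above and 25.0% below over all genes. Past the threshold at week 5 were Id1 (higher) and Chrd and Bmp2 (lower), 3 of 9 beside 22.4% of all 13685 genes tested. Since the 9 genes were listed with earlier results of these data known, these counts are a description and not a test. The median log2 fold change of the 9 genes was -0.29 at week 4 and -0.44 at week 5, beside -0.25 and 0.12 over all genes.

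In the normal bladders of week 4 the order of the members by mean FPKM was Id1, Bmpr1a, Bmp4, Bmp7, Bmpr2, Bmp2, Chrd, Grem1 and Nog. Each neighbour overlapped with the next from Bmp4 through to Bmp2, and Grem1 overlapped with both Chrd and Nog, while every sample of Chrd was above every sample of Nog. Id1 and Bmpr1a each stood clear of all the others.

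The other BMP pathway genes were taken from a list of 62, of which 60 were in the table and 41 passed the filter on low values at week 4 and 42 at week 5. At week 4, 3 of the 41 were called higher (Fstl3, Bmper and Fstl1) and 4 lower (Sostdc1, Id3, Hey1 and Bambi), or 7 called beside 4.9% of all genes (2.46% higher and 2.45% lower). Of these, Fstl1 alone had a limma adjusted p below 0.05, beside 0.371% of all genes, and its adjusted p was above 0.05 without the filter (0.0586), after median-ratio scaling (0.0582), without the trend (0.0825) and on leaving out any 1 sample but PBOO replicate 1 (0.0812 to 0.213). At week 5, 2 of the 42 were called higher and 12 lower, beside 9.82% and 12.6% of all genes, and 11 of these 14 had a limma adjusted p below 0.05, beside 19.3% of all genes. The week 4 count was 4 after median-ratio scaling, 11 without PBOO replicate 1 and 3 without PBOO replicate 3, and the week 5 count was 9 without PBOO replicate 2 and 21 without PBOO replicate 1.

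**Figure D4:**
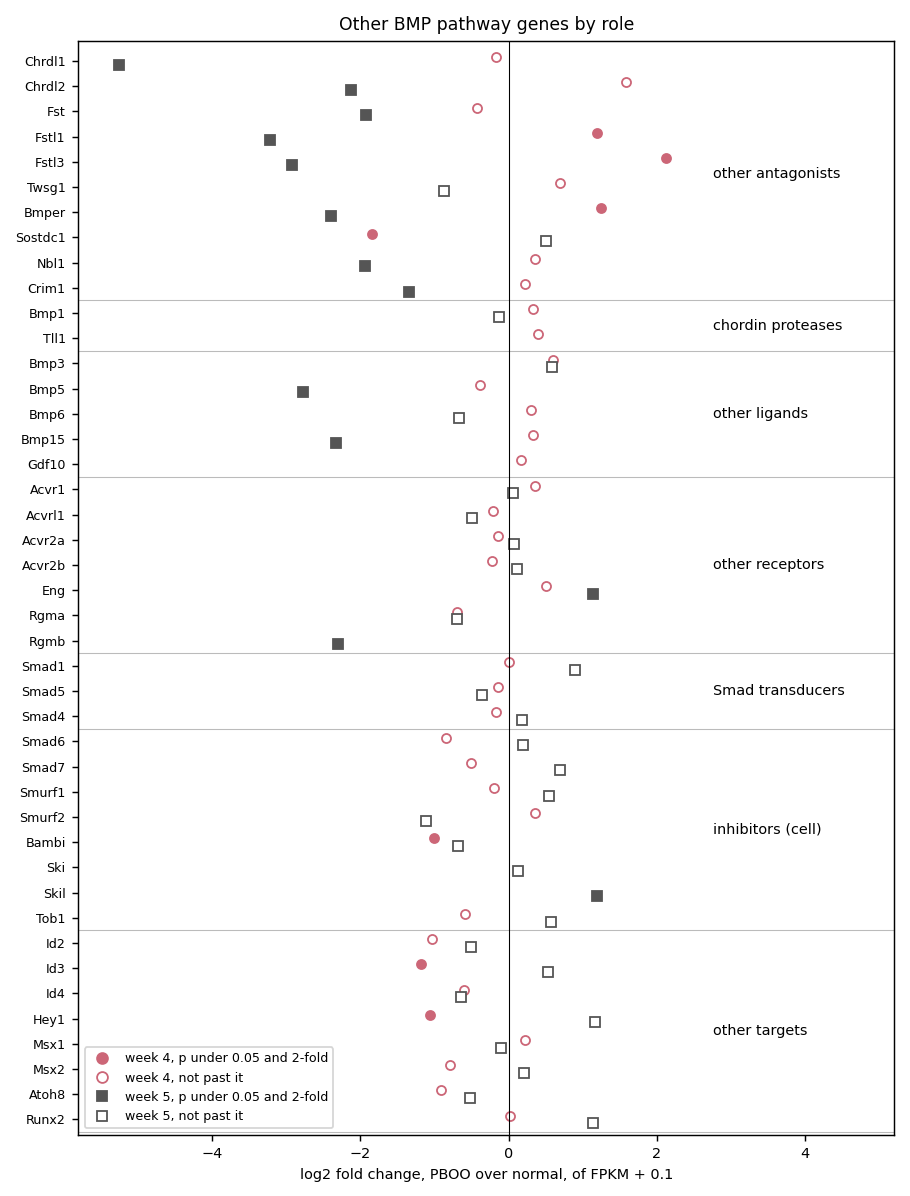
Log2 fold change of PBOO over normal (horizontal axis, on the log2(FPKM + 0.1) scale) for the other BMP pathway genes shown by role, with 1 point per gene at weeks 4 and 5 and filled points for called genes. Among the antagonists, Fstl3 stands at 2.12 at week 4 and at -2.92 at week 5, and Chrdl1 at -5.26 at week 5.

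Among the other secreted antagonists, Fstl3 and Fstl1 rose at week 4. Fstl3, a follistatin-like protein that binds activins and related ligands, was 11.4, 9.57 and 9.61 FPKM in the normal and 27.5, 42.8 and 75.1 FPKM in the PBOO samples, a log2 fold change of 2.12 (SE 0.34, limma adjusted p = 0.0503). Fstl1, a secreted glycoprotein of the same family, was 118, 132 and 137 FPKM against 239, 299 and 358 FPKM, a log2 fold change of 1.19 (SE 0.16, limma adjusted p = 0.0483). Both separated the groups completely, with PBOO above normal as in 6.63% of all genes tested. In both, as in Grem1, PBOO replicate 3 was the highest and replicate 1 the lowest of the PBOO samples. The summed smooth muscle markers had this order too, though not each gene in the sum. Bmper, which encodes a BMP-binding endothelial regulator, was 2.47, 2.26 and 2.56 FPKM against 2.89, 7.03 and 10.01 FPKM, a log2 fold change of 1.25 (SE 0.43, limma adjusted p = 0.111). Sostdc1, an antagonist of BMP and Wnt signals, fell from 12.3, 6.93 and 3.89 FPKM to 1.98, 3.02 and 1.05 FPKM, a log2 fold change of -1.85 (SE 0.50, limma adjusted p = 0.0800). The median of the 11 antagonists tested was 0.35 at week 4, beside -0.25 over all genes. Of the 11, 3 were called higher and 1 lower, beside 2.46% and 2.45% of all genes, and 7 were not called. Bmper missed the threshold without normal replicate 2 (1.2), PBOO replicate 2 (1.12) or PBOO replicate 3 (0.87).

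At week 5 most of these antagonists fell. Of the 11 tested, 9 were called lower and 0 higher, beside 12.6% and 9.82% of all genes, with a median log2 fold change of -2.13 beside 0.12. Sostdc1 was 3.28, 5.57 and 2.73 FPKM in the normal and 6.65 and 4.13 FPKM in the PBOO samples, where the groups overlapped, with a log2 fold change of 0.50 (SE 0.37). Chrdl1, a Chordin-like antagonist, was 4.61, 18.9 and 12.5 FPKM in the normal and 0.245 and 0.114 FPKM in the PBOO samples, a log2 fold change of -5.26 (SE 0.62, limma adjusted p = 0.00316). Both PBOO values are near the pseudocount, and the log2 fold change was -3.28 with a pseudocount of 1 and -5.85 with 0.01. Fstl1 was 75.7, 90.4 and 82.1 FPKM against 7.997 and 9.58 FPKM, a log2 fold change of -3.22 (SE 0.14, limma adjusted p = 0.000258). Fstl3 was 14.4, 14.3 and 15.8 FPKM against 2.04 and 1.73 FPKM, a log2 fold change of -2.92 (SE 0.15, limma adjusted p = 0.000289). Fstl1 and Fstl3 were thus below normal in every PBOO sample at week 5 and above it in every PBOO sample at week 4. Of the 11296 genes fitted over both weeks together, 4.09% showed this combination. The smooth muscle and fibroblast sums of these week 5 PBOO samples were 5.27% and 8.23% of the normal means.

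**Figure D5:**
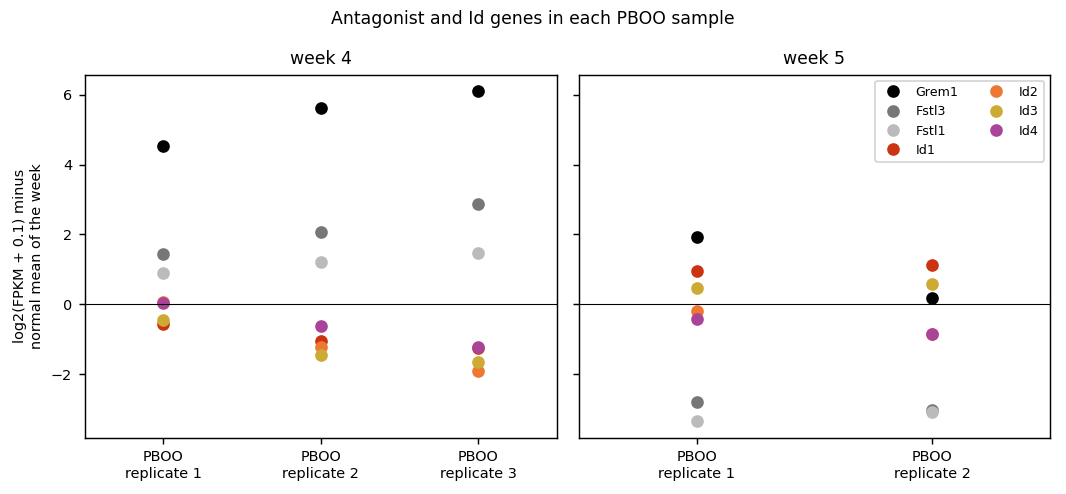
Log2(FPKM + 0.1) minus the normal mean of the same week (vertical axis) for Grem1, Fstl3, Fstl1 and the Id genes in each PBOO sample (horizontal axis), with 1 point per gene and 1 panel per week. Fstl1 and Fstl3 lie above 0, the normal mean, at week 4 and below it at week 5, and Id1 and Id3 lie below it at week 4 and above it at week 5. Id2 and Id4 lie below it at week 5.

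Of the other ligands, 0 of 5 were called at week 4, beside 4.9% of all genes, and 2 of 4 were called lower at week 5, beside 12.6%. Bmp5, a ligand of the Bmp7 subgroup, was 9.15, 7.08 and 7.61 FPKM in the normal and 1.48 and 0.771 FPKM in the PBOO samples at week 5, a log2 fold change of -2.77 (SE 0.30, limma adjusted p = 0.00236). Of the other receptors and co-receptors, 0 of 6 were called at week 4, and 1 of 7 was called higher and 1 lower at week 5. Over all genes, 4.9% were called at week 4, and 9.82% higher and 12.6% lower at week 5. The one that rose was Eng, the endothelial co-receptor endoglin, at 18.3, 24.0 and 17.2 FPKM in the normal and 33.8 and 55.6 FPKM in the PBOO samples, a log2 fold change of 1.14 (SE 0.26, limma adjusted p = 0.0251). The summed endothelial markers of that week were 37.78 to 75.34 FPKM in the normal and 69.28 to 90.23 FPKM in the PBOO samples. Skil, which encodes a nuclear inhibitor of Smad signaling, also rose at week 5, by a log2 fold change of 1.2 (SE 0.32, limma adjusted p = 0.0382), and was listed at 0 in all week 4 samples. Without PBOO replicate 2 the log2 fold changes of Eng and Skil were 0.78 and 0.71, and neither was called.

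Of the Smad transducers, 0 of 3 were called in either week, beside 4.9% of all genes at week 4 and 22.4% at week 5. Smad1 was 17.5 to 18.6 FPKM in the normal and 17.4 to 18.8 FPKM in the PBOO samples at week 4, with a log2 fold change of 0.01 (SE 0.10). At week 5 it was 5.26, 5.38 and 5.18 FPKM against 9.95 and 9.88 FPKM, a log2 fold change of 0.90 (SE 0.13, limma adjusted p = 0.00582) that stayed under the 2-fold threshold. Smad7, an inhibitory Smad, was 9.61, 9.13 and 7.65 FPKM against 7.50, 5.78 and 5.34 FPKM at week 4, and 7.76, 9.01 and 9.35 FPKM against 13.3 and 14.9 FPKM at week 5, and it was under 2-fold in both weeks. Smad5 and Smad6 had log2 fold changes of -0.14 and -0.84 at week 4 and of -0.36 and 0.20 at week 5, and neither was called. Bambi, a decoy receptor, was 91.1, 117 and 106 FPKM against 90.2, 52.6 and 29.5 FPKM at week 4, a log2 fold change of -1.001 (SE 0.37, limma adjusted p = 0.123).

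The other Id genes were compared with Id1. Id3 was 135, 165 and 135 FPKM in the normal and 106, 52.7 and 45.9 FPKM in the PBOO samples at week 4, a log2 fold change of -1.18 (SE 0.30, limma adjusted p = 0.0755), and at week 5 it was 56.9, 78.9 and 58.0 FPKM against 88.1 and 96.2 FPKM, a log2 fold change of 0.53 (SE 0.18). Every PBOO sample was thus below normal at week 4 and above it at week 5, as for Id1. The same held for 14.4% of the 11296 genes fitted over both weeks together. Id2 was 159, 190 and 180 FPKM against 184, 75.6 and 46.5 FPKM at week 4, where the groups overlapped, and 181, 228 and 173 FPKM against 170 and 108 FPKM at week 5. Id4 was 42.1, 48.0 and 41.95 FPKM against 45.0, 28.45 and 18.7 FPKM at week 4, where the groups overlapped. At week 5 it was 16.9, 23.0 and 18.6 FPKM against 14.4 and 10.7 FPKM. It had log2 fold changes of -0.60 and -0.64 and was not called in either week. At week 5 every PBOO sample of Id2 and of Id4 was thus below every normal sample, opposite to Id1, as in 25.0% of all genes tested. The summed FPKM of Id1 to Id4 was 637 to 770 in the normal and 570, 324 and 255 in the PBOO samples at week 4, and 379 to 478 against 534 and 508 at week 5. In the week 4 PBOO samples the order of this sum, highest in replicate 1 and lowest in replicate 3, was the reverse of the order of Grem1. The urothelial sum had the order of the Id sum, at 3808, 3527 and 3020 FPKM, and the smooth muscle sum that of Grem1, and the part of these markers in the order was not tested. Neither order held for each gene in these marker sums.

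Of the 8 other target genes tested, 2 were called lower at week 4 (Id3 and Hey1), beside 2.45% of all genes. At week 5, 0 were called, beside 22.4% of all genes. Their median log2 fold change was -0.85 at week 4 and 0.05 at week 5, beside -0.25 and 0.12 over all genes. Hey1, a transcriptional repressor that BMP and Notch signals switch on, was 2.35, 2.31 and 3.67 FPKM against 1.53, 1.54 and 0.819 FPKM at week 4, a log2 fold change of -1.06 (SE 0.33, limma adjusted p = 0.0983). After median-ratio scaling the week 4 log2 fold changes of Id3, Hey1 and Bambi were -0.93, -0.83 and -0.75, and none of them was called. Without PBOO replicate 3 they were -0.95, -0.78 and -0.59, and again none was called. Hey1 was also not called without normal replicate 3 (-0.85), and Bambi without normal replicate 2 (-0.92), normal replicate 3 (-0.99) or PBOO replicate 2 (-1.01).

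The difference between the PBOO effects of the weeks was tested in a fit of all 11 samples. Of 41 other pathway genes tested, 6 differed upwards and 12 downwards at week 5 relative to week 4 by at least 2-fold, or 18 called beside 30.2% of all 11296 genes (17.6% upwards and 12.5% downwards). Of these, 16 had a limma adjusted p below 0.05, beside 27.2% of all genes, and at any fold 18 had one, beside 40.0%. After median-ratio scaling the split over all genes went from 1992 upwards and 1417 downwards to 1073 and 1788. The antagonists accounted for 9 of the 12 that went downwards. Grem1, Chrd and Id1 themselves had differences of -4.37 (SE 1.11), -3.13 (SE 0.51) and 1.99 (SE 0.26), which are not tested here. The weeks differ in the genes listed at 0 as well as in time since surgery. They also differ in column names, since all those of week 4 and none of week 5 carry the word Input. The parts of these in the difference cannot be told apart.

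The neighbours of Grem1 on rat chromosome 3, in RefSeq's gene order on GRCr8, are Fmn1 on one side and Scg5 and Arhgap11a on the other. Scg5, which encodes a neuroendocrine chaperone, was 0.429, 0.219 and 0.472 FPKM in the normal and 0.988, 1.69 and 4.50 FPKM in the PBOO samples at week 4, a log2 fold change of 2.18 (SE 0.57, limma adjusted p = 0.0774). Both groups were separate in Scg5, with PBOO above normal as in 6.63% of all genes tested, and PBOO replicate 3 was again the highest. Arhgap11a was 0.616, 1.01 and 1.46 FPKM against 1.45, 3.14 and 7.23 FPKM at week 4, where the groups overlapped, a log2 fold change of 1.63 (SE 0.58, limma adjusted p = 0.118). It was not called without normal replicate 1 (1.34), normal replicate 2 (1.66), PBOO replicate 2 (1.65) or PBOO replicate 3 (1.06). Fmn1 was listed at 0 in all week 4 samples. Strand-specific counting is not given in the sources used here, so reads of overlapping neighbours cannot be assigned with certainty.

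The genes whose pattern was most like Grem1, by the Pearson correlation over the 11 samples of log2(FPKM + 0.1) minus the normal mean of the same week, were Uhrf1bp1l (0.962), Tp53inp2 (0.927), Stk38l (0.911), Ptpn9 (0.909) and Cyb5r3 (0.906), out of 9970 genes compared. Those most like Id1 included Nob1 (0.993), Ivns1abp (0.992), Hnrnpm (0.988) and Ccdc125 (0.987), out of 9969. The 11 points share libraries and include the groups that the members were chosen on, so the coefficients are a description.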

How the data were processed

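RNA-seq had been run on rat bladder tissue from 11 samples. The deposited values are FPKM, which the authors made from paired reads with HISAT2 2.0.4, StringTie 1.3.1 and featureCounts. The submitters' processing notes also name bcl2fastq 2.0, DESeq2, limma and the genome build mm10, while the gene symbols of the table are those of rat (425 start with RGD, 36 with RT1- and 0 with H2-). The gene annotation and strand setting are not given in the sources used here. Read depth is unknown, since the FPKM values did not resolve into whole reads: at most 3.91% of 179 genes under 0.1 FPKM shared 1 ratio (within 0.5%) between 2 samples. A listed 0 may be a failed estimate, and 824 genes at a mean of 10 FPKM or more at week 5 were listed at 0 in all week 4 samples.

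Samples were grouped by treatment and week from their titles. Values were analysed as log2(FPKM + 0.1) with limma 3.58.1 (lmFit and eBayes with a trend) in R 4.3.3, keeping genes whose average over the fitted samples was 0.5 FPKM or more. Week 4 and week 5 were fitted separately, and the difference between weeks over all 11 samples among genes above 0 in both weeks. The limma tests were two-sided, and their step was tested on simulated data. Tables and plots used Python 3.11.15, pandas 2.3.3, numpy 2.4.6 and matplotlib 3.10.9. Alternatives were pseudocounts of 1 and 0.01, other filters, median-ratio and quantile scaling, eBayes without a trend, a 4-fold threshold, adjusted p-values, a replicate block and leaving out each sample.

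The 9 genes, the pathway and marker lists and the tests were chosen with earlier results of these data known. Named pathway genes were, in each week, up to 5 per direction with the largest log2 fold change among called genes averaging 1 FPKM or more whose groups were separate, up to 5 by size with an adjusted p below 0.05 for the difference between weeks, the Id genes, Smad1, Smad5, Smad6, Smad7, Bambi and the neighbours of Grem1. The 5 genes most like Grem1 and Id1 were taken among those averaging 1 FPKM or more in each week. Some genes that these rules select are not reported here.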

Additional observations from a re-analysis of the deposited data

Results flagged for a closer look

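Some genes had a different PBOO effect in the 2 weeks, given here as the week 5 minus the week 4 log2 fold change and passing the limma test of this difference over all 11 samples at an adjusted p below 0.05. Some of these genes were named because they passed this test, so their number is not a result. Those with a lower value at week 5 were the antagonists Chrdl1 (-5.09), Fstl3 (-5.04), Fstl1 (-4.41), Chrdl2 (-3.71) and Bmper (-3.64), the ligand Bmp5 (-2.39) and the Grem1 neighbour Scg5 (-3.95). Those with a higher value at week 5 were the antagonist Sostdc1 (2.34), the targets Hey1 (2.22) and Id3 (1.71), the inhibitory Smad7 (1.19) and the transducer Smad1 (0.89). Chrdl2 had an adjusted p of 0.0922 with a pseudocount of 1 (-2.03) and of 0.00667 to 0.0807 on leaving out 1 sample. Bmper was -1.82 with a pseudocount of 1 and -4.49 with 0.01. Its week 5 PBOO values, 0.085 and 0.0828 FPKM, lay under the pseudocount of 0.1. Scg5 was -1.58 with a pseudocount of 1 and -5.99 with 0.01. At week 5 it was 0.239 to 0.585 FPKM in the normal and 0 and 0.0962 FPKM in the PBOO samples. There it fell under the filter of 0.5 FPKM and was not fitted for that week alone. Chrd (-3.13) and Id1 (1.99) stand here because all PBOO samples lay on one side of normal at week 4 and on the other at week 5, and their difference was not tested. The summed smooth muscle markers of PBOO samples were 245% of the normal mean at week 4 and 5.27% at week 5, and their part in these differences was not tested.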

How the results depend on the processing

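Of the other pathway genes, the 7 called at week 4 became 4 after median-ratio scaling, 1 at a 4-fold threshold, 1 by adjusted p, and 3 to 11 without 1 sample. The 14 at week 5 became 9 at 4-fold and 9 to 21 without 1 sample, and the 18 for the difference between weeks became 11 at 4-fold. For the members, week 4 log2 fold changes after median-ratio scaling were 0.84 for Chrd, -0.11 for Bmp2, 0.28 for Bmpr1a and 0.07 for Bmpr2, and after quantile normalization -0.13 for Bmp2, 0.21 for Bmpr1a and 0.03 for Bmpr2. Week 5 values were -0.99 and -3.24 for Chrd with pseudocounts of 1 and 0.01, and 0.86 for Id1 after quantile normalization. Without 1 sample, week 5 values ran from -3.12 to -1.94 for Chrd, from -1.57 to -0.65 for Bmp2, from -0.35 to 0.54 for Bmp7 and from -0.94 to -0.33 for Bmpr1a. The causes of these shifts were not tested. Of the named single genes, 5 calls of 29 were lost after median-ratio scaling, 6 with a pseudocount of 1 and 4 after quantile normalization, among them the week 4 calls of Hey1 under all of these. Over all genes, 42 at week 4 had an adjusted p below 0.05 and a 2-fold difference, and 0 did after median-ratio scaling (smallest adjusted p 0.053), without the filter (0.052) or without the trend (0.0825), while 40 to 80 did under the others. A pseudocount of 1 left 200 higher and 136 lower calls at week 4. The adjusted p of Fstl1 at week 4 ran from 0.0349 to 0.0825 over the settings with all samples and from 0.01 to 0.213 without 1 sample. For the difference between weeks, the adjusted p without 1 sample reached 0.0844 for Hey1 and 0.0787 for Sostdc1. The samples were not treated as pairs, since deviations of same-numbered samples correlated at 0.154, -0.024 and 0.232 at week 4 and at -0.001 and 0.124 at week 5, which is not above 0.1 in every pair, and whether the numbers mark a shared origin is not known. With a replicate block the pathway counts were 8, 16 and 19 at week 4, at week 5 and for the difference. The adjusted p of Chrdl2 for the difference was 0.0765 with this block, beside 0.0215 to 0.0922 over the settings with all samples.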
